A study of Mus musculus with 40 samples.

Results

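The translation initiation and elongation factors are the genes whose symbol begins with Eif or Eef and a digit, without the eIF2 kinases (Eif2ak) and pseudogene names, and with a mean expression over the libraries of at least 5 on the count scale. Of 27179 genes in the table, 13103 passed this expression limit. The name pattern held 64 genes, of which 61 passed, and Eef1akmt3, Eif4e1b and Eif2c5 did not. The values came from bone marrow-derived macrophages (BMDMs), which are grown from bone marrow with a source of M-CSF, of 4 WT and 4 Cpeb4-/- (CPEB4-KO) adult male mice of a mixed C57BL/6J and 129 background. Cpeb4 is missing in the whole Cpeb4-/- animal and not only in the macrophages. Cells of each mouse were left untreated (0 hr) or received 10 ng/ml lipopolysaccharide (LPS), a bacterial membrane component, for 1, 3, 6 or 9 hr, which gave 40 libraries, 4 for each genotype and time. Each of 2 batches in the labels held 2 mice of each genotype, and no cage held both genotypes, so cage and genotype cannot be told apart. Cpeb4-/- mice 2 and 3 shared cage 104 and WT mice 87 and 88 shared cage 9. Each mouse was still counted as a replicate, so the replicates of a genotype may not be fully independent.

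Initiation factors bring the ribosome to an mRNA. The cap-binding protein eIF4E, the scaffold eIF4G and the helicase eIF4A load the mRNA, eIF2 carries the initiator tRNA and is recharged by eIF2B, eIF3 bridges the mRNA and the small subunit, and eIF1, eIF1A and eIF5 act in scanning and start codon choice. Elongation factors eEF1A and eEF2 then deliver tRNAs and move the ribosome, and the kinase eEF2K inhibits eEF2. The eIF4E-binding proteins (Eif4ebp genes) hold eIF4E away from eIF4G until mTORC1 phosphorylates them. All of this is regulated largely on the protein, whereas the data here are mRNA levels. CPEB4 itself is an RNA-binding protein that controls the poly(A) tails and translation of mRNAs.

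Values are rlog, a log2 scale corrected for library size on which small counts are drawn toward each gene's mean. They are not divided by transcript length, so levels are compared between libraries and not between genes. Cpeb4 ranged from 10.09 to 10.67 in WT and from 8.74 to 9.66 in Cpeb4-/- at 6 hr, and the genotypes overlapped at the other 4 times. These gene-level values do not show which exons the reads cover, so Cpeb4 checked the genotype labels at 6 hr only. Macrophage genes were high in each library, from 12.73 for Fcgr1 to 18.91 for Lyz2, and markers of T, B, NK and fibroblast cells and of neutrophils had medians of at most 3.17 (Camp), apart from Cd4 (5.32 to 7.22). All 40 libraries lay nearest to a group of their own time. The Cpeb4-/- 9 hr library of mouse 2 lay nearest to WT 9 hr, as 2 WT libraries at 1 hr and 2 at 3 hr lay nearest to Cpeb4-/-, so genotype results at those times are also given without single mice.

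Promoter sequences of 47 of the 61 genes were read from RefSeq (GRCm38.p6), from 250 bases before to 50 bases after the annotated start. Many mRNAs of the translation machinery begin with a pyrimidine run, the 5′ terminal oligopyrimidine (TOP) motif, through which mTORC1 and LARP1 control their translation. A C followed by at least 5 pyrimidines, with the C between bases -15 and 30 around the annotated start, was found in 19 of 47 genes (40.4%) and in 36.9% of the 27025 genes in the RefSeq table. The run is therefore about as frequent among these genes as in that table, which also holds genes below the expression limit. At 9 hr of LPS in WT, 9 of the 19 genes with the run were lower and 6 higher. For 5 of the lower genes it is shown in capitals, from bases -5 (Eef1a1), -4 (Eif3f), 14 (Eif3k), 5 (Eif3l) and 11 (Eif4b):

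Eef1a1 (chr9:78481707-78481736, minus strand): ggctccgCCCTCTTCCCgagggtgggggag
Eif3f (chr7:108934404-108934433, plus strand): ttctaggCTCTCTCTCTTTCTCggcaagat
Eif3k (chr7:28981853-28981882, minus strand): gaaagcgCCTTTCCCTTTgccttccttgta
Eif3l (chr15:79075220-79075249, plus strand): tcttccgCTCTCTCCCacgggcttctggag
Eif4b (chr15:102073776-102073805, plus strand): cgcgccaCCCCCTCgcgctgctttacgaac

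The E-box CACGTG, a motif bound by MYC and related factors and the same on both strands, stood anywhere in the 300 bases in 12 of 47 genes (25.5%) and in 8.09% of genes in the table. It is shown in capitals for the cap-binding genes Eif4e, Eif4g1 and Eif4a1 and for Eef2 and its kinase gene Eef2k, which moved in different directions:

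Eif4e (chr3:138527192-138527221, plus strand): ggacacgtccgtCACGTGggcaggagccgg
Eif4g1 (chr16:20672661-20672690, plus strand): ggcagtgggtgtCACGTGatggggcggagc
Eif4a1 (chr11:69672595-69672624, minus strand): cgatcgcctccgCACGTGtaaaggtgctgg
Eef2 (chr10:81176576-81176605, plus strand): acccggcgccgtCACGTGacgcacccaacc
Eef2k (chr7:120842788-120842817, plus strand): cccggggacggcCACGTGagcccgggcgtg

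In WT BMDMs, LPS raised the mRNAs of Eif4g2, Eif1a, Eif6, Eif4e and Eif2s1 and lowered those of Eef2k, Eif4b, Eif2d and several eIF3 and elongation factor subunits. At an adjusted p under 0.05 (limma, over all tested genes), 17 members were higher and 5 lower after 1 hr, where 37.7% of all tested genes were called (19.4% higher, 18.3% lower). After 3 hr, 31 members were higher and 7 lower, beside 69.9% of tested genes called (33.5% higher, 36.4% lower). The 6 hr count was 34 higher and 16 lower, beside 79.9% (39.7% higher, 40.2% lower), and the 9 hr count was 28 higher and 19 lower, beside 73.7% (37.0% higher, 36.6% lower). The share of members called was thus near that of all genes. In these bulk samples, fewer cells of a type and less RNA per cell cannot be told apart. The median difference of the members at 6 hr was 0.14, against -0.02 over all tested genes.

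**Figure D1:**
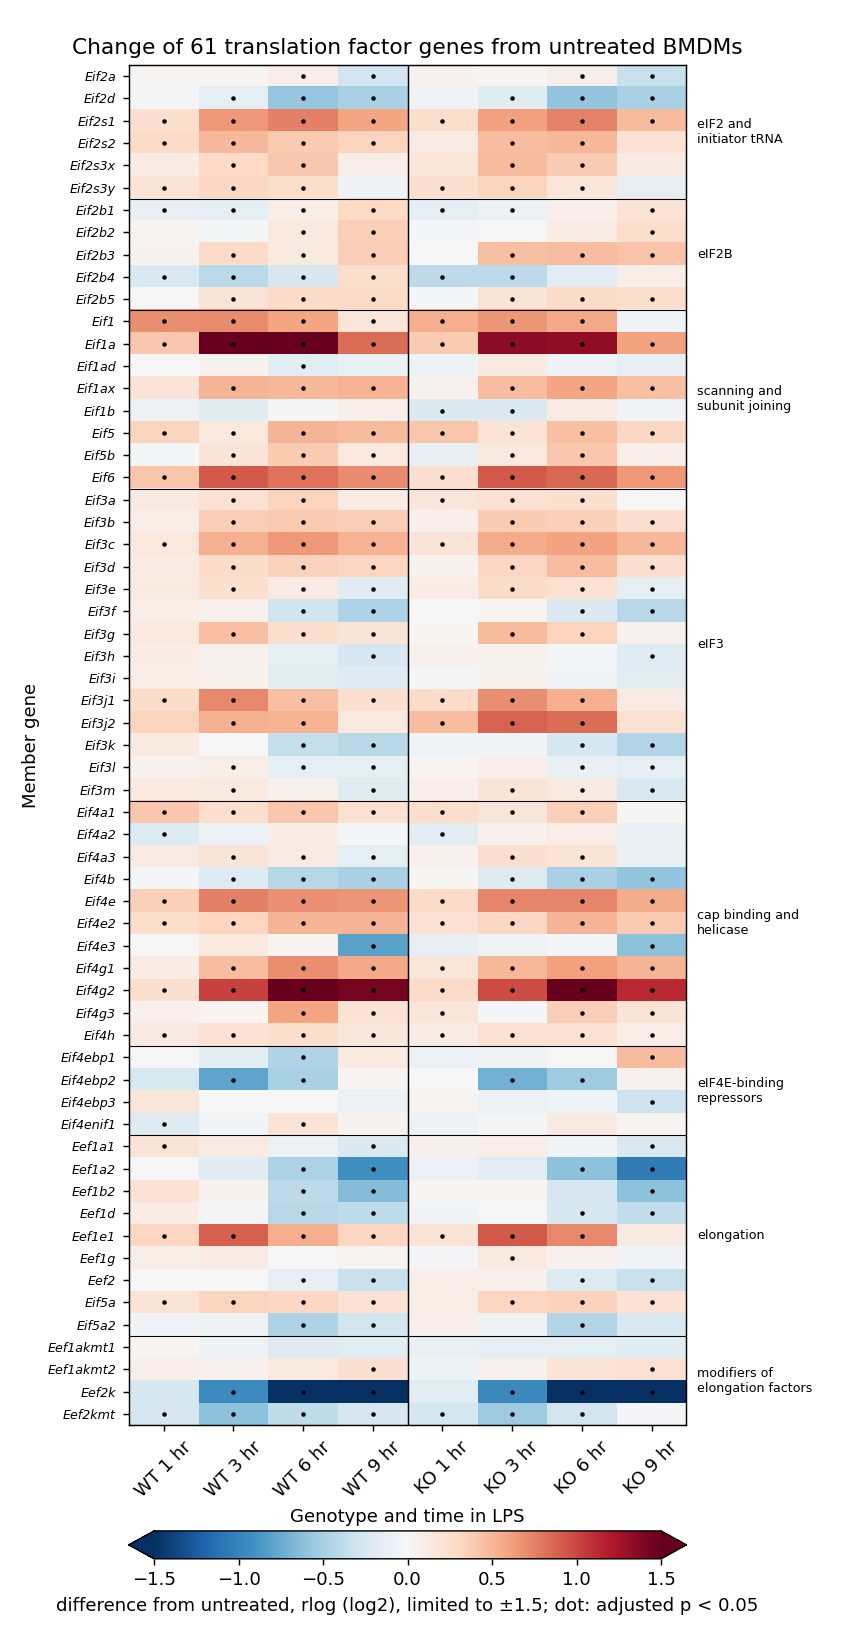
Heatmap of the difference from untreated (rlog, log2 units; colour limited to 1.5 in each direction) for the 61 genes, ordered by role, at 4 LPS times in WT and Cpeb4-/- BMDMs, with a dot where the limma adjusted p was under 0.05. Eif4g2 and Eif1a show the strongest rise and Eef2k the strongest fall in both genotypes.

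The direction of many small changes depended on how libraries were scaled to each other. The back-transformed rlog values summed to 21.8 to 22.7 M in untreated WT libraries and to 32.7 to 33.8 M at 6 hr, and abundant genes were shifted upward at 6 hr as a class. The median change of tested genes with a mean rlog from 13 to 14 was 0.69, whereas that of genes below 9 was -0.30. Of the 61 members, 24 lay above and 37 below the median of tested genes in their own level range at 6 hr. After quantile normalization 13 members were higher and 30 lower at 6 hr, beside 78.9% of tested genes called. With library totals made equal, a scaling chosen after the data were seen that put the median of all tested genes at -0.60, 5 were higher and 44 lower. The median of the members was then -0.43, and 87.9% of tested genes were called. After 1 hr these scalings gave 9 higher and 14 lower (quantile) and 5 and 22 (equal totals), after 3 hr 14 and 27 and then 9 and 40, and after 9 hr 16 and 26 and then 9 and 39. At 1, 3 and 9 hr, quantile normalization called 41.5%, 70.3% and 72.3% of tested genes, and equal totals 57.9%, 83.6% and 80.6%. Between successive times, 18 members were higher and 7 lower from 1 to 3 hr (62.9% of tested genes called), 15 and 19 from 3 to 6 hr (66.8%), and 6 and 21 from 6 to 9 hr (54.4%). The last split was 14 and 13 after quantile normalization and 26 and 6 with equal totals, and the earlier ones were 11 and 21, then 10 and 31, and 8 and 27, then 3 and 37. For these steps in order of time, quantile normalization called 63.0%, 64.7% and 52.1% of tested genes, and equal totals 71.5%, 68.7% and 62.3%. Calls that held in all 3 scalings numbered 5 upward and 12 downward at 6 hr. By 9 hr there were 6 upward and 17 downward. The sign of the difference changed between scalings for 32 members at 6 hr.

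**Figure D2:**
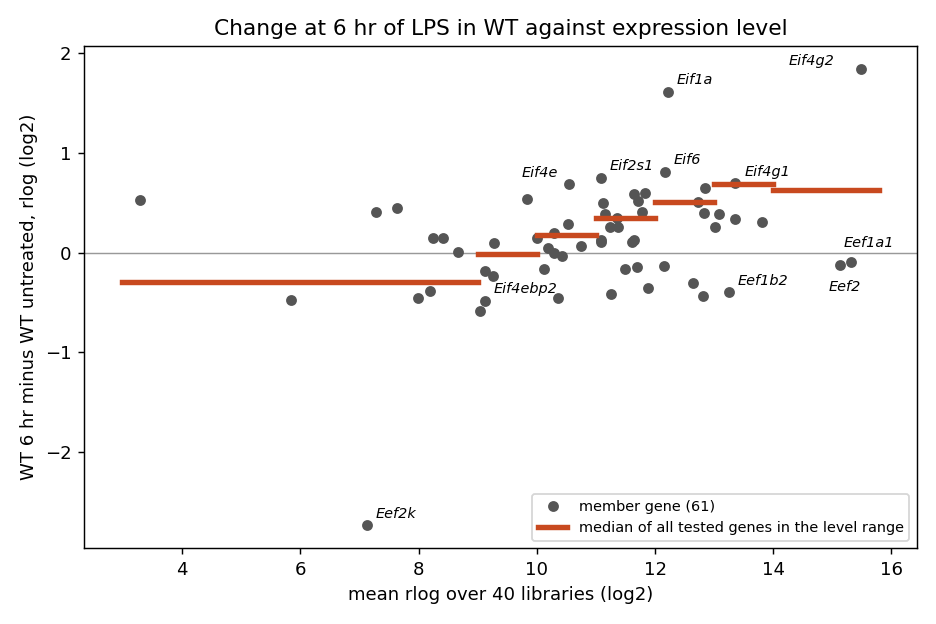
Difference between WT at 6 hr and untreated WT (rlog, log2 units) against mean rlog over 40 libraries for the 61 genes (points), with the median of all tested genes in each level range (bars). Eif4g2, Eif1a and Eif2s1 lie above and Eef2k, Eef1a1 and Eef2 below the bar of their range.

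Among the eIF2 genes, Eif2s1, which encodes the alpha subunit phosphorylated in the stress response, rose. It was 10.58, 10.63, 10.67 and 10.73 in the untreated WT libraries and 11.31, 11.39, 11.40 and 11.53 at 6 hr. The groups did not overlap, and the difference was 0.75 ± 0.04 (SE, n = 4; limma adjusted p = 1.14e-18). Eif2d, an alternative carrier of the initiator tRNA, fell by 0.58 at 6 hr, and both calls held in all 3 scalings. Eif2s3x and Eif2s3y, the X and Y copies of the gamma subunit gene, were 0.41 ± 0.08 and 0.26 ± 0.07 higher at 6 hr, but both differences were negative with equal totals (-0.17 and -0.32), and reads of such near-identical copies may be split between them.

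The 5 eIF2B genes moved in both directions before 9 hr. At 1 and 3 hr Eif2b4 was lower (-0.23 and -0.41), and Eif2b1 was lower too (-0.11 and -0.13), whereas Eif2b3 and Eif2b5 were higher at 3 hr (0.30 and 0.20). At 6 hr 4 were called higher (39.7% of tested genes), from 0.10 for Eif2b1 to 0.29 for Eif2b5, and Eif2b4 was lower (-0.24). With equal totals all 5 were negative at 6 hr. At 9 hr all 5 were called higher (37.0% of tested genes), from 0.27 for Eif2b4 to 0.37 for Eif2b3. All 5 were also called higher after quantile normalization. With equal totals their differences at 9 hr had the opposite sign, from -0.10 for Eif2b4 to -0.0043 for Eif2b3, and none passed the test. Against 6 hr, Eif2b1, Eif2b2 and Eif2b4 were higher at 9 hr in all 3 scalings.

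The scanning factor gene Eif1a had the largest rise but for that of Eif4g2. It was 11.29, 11.29, 11.32 and 11.48 in untreated WT libraries, 12.84 to 12.98 at 3 hr and 12.91, 12.93, 12.93 and 13.07 at 6 hr, and it fell back to 12.17 to 12.21 at 9 hr. The groups were far apart, with a difference of 1.62 ± 0.05 at 6 hr (limma adjusted p = 2.50e-27) and 1.04 in each of the other scalings. Its paralog Eif1ax was 0.50 ± 0.08 higher at 6 hr, a call that was lost with quantile normalization (0.18) and equal totals (-0.08). Eif1, which guards start codon choice, moved early. It was 11.15 to 11.43 in untreated WT, 11.85, 11.88, 12.01 and 12.17 at 1 hr and 11.31 to 11.62 at 9 hr. Its paralog Eif1b showed a difference of -0.03 at 6 hr (adjusted p = 0.73). Eif6, which keeps free large subunits from joining, went from 11.55, 11.61, 11.61 and 11.91 in untreated WT to 12.36, 12.57, 12.65 and 12.77 at 3 hr, a rise of 0.92 ± 0.09 (limma adjusted p = 4.44e-11).

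The 14 eIF3 genes split by subunit. At 9 hr 5 were called higher and 6 lower, with a median of -0.01, beside 37.0% of tested genes higher and 36.6% lower. Eif3c (0.52), Eif3b (0.36) and Eif3d (0.32) were higher at 9 hr, and Eif3f (-0.46), Eif3k (-0.41), Eif3h (-0.25), Eif3e (-0.19), Eif3m (-0.18) and Eif3l (-0.13) were lower. The 6 lower calls held in all 3 scalings, whereas the higher ones did not. The gene of the loosely bound subunit eIF3j, Eif3j1, was 0.72 higher at 3 hr in the deposited values and was called higher at that time in all 3 scalings. Its near-identical copy Eif3j2 was 0.54 higher, but its mean rlog of 3.28 lay near the expression limit of 2.32. Reads may also be shared between the pair.

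In the cap-binding group Eif4g2 stood out. It encodes DAP5, an eIF4G relative that lacks the eIF4E-binding region, and lies at chr7:111067985-111083030. It was 14.52, 14.53, 14.61 and 14.66 in untreated WT libraries, 15.54 to 15.71 at 3 hr, 16.33, 16.40, 16.46 and 16.52 at 6 hr and 15.95 to 16.07 at 9 hr. Each LPS time lay above untreated cells, with a rise of 1.85 ± 0.05 at 6 hr (limma adjusted p = 7.76e-28) that was 1.10 after quantile normalization and 1.27 with equal totals. The canonical scaffold genes Eif4g1 and Eif4g3 were 0.70 ± 0.06 and 0.59 ± 0.07 higher at 6 hr. Neither call was kept in all scalings, and Eif4g1 was -0.16 after quantile normalization.

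Eif4e was tight between mice, at 10.01, 10.03, 10.04 and 10.05 in untreated WT and 10.77, 10.78, 10.79 and 10.82 at 3 hr. The groups did not overlap, the rise was 0.75 ± 0.04 (limma adjusted p = 6.33e-19), and the value stayed at 10.68 to 10.80 at 6 hr and 10.68 to 10.72 at 9 hr. Its relatives differed. Eif4e2, a weak cap binder, was 0.51 ± 0.05 higher at 6 hr but -0.06 with equal totals, and was called higher in all 3 scalings at 9 hr. Eif4e3 was 10.10, 10.13, 10.27 and 10.40 in untreated WT, remained at 10.15 to 10.37 at 6 hr and then dropped to 9.33, 9.43, 9.44 and 9.51 at 9 hr, a difference of -0.80 ± 0.07 (limma adjusted p = 6.47e-12). The helicase gene Eif4a1 was 0.41 ± 0.05 higher at 6 hr, with -0.08 and -0.17 in the other scalings. Eif4a2 was 0.11 ± 0.06 higher at 6 hr (adjusted p = 0.094, and 0.049 with the replicate block). Eif4b, which stimulates the helicase, was lower at 6 hr (-0.43) and 9 hr (-0.48).

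Of the 4 eIF4E-binding repressor genes, Eif4ebp2 and Eif4ebp1 were lower in the middle of the course and were not called at 9 hr, where equal totals called both lower (-0.32 and -0.24). Eif4ebp2 was 9.01, 9.23, 9.38 and 9.54 in untreated WT, 8.27, 8.30, 8.55 and 8.87 at 3 hr and 9.15 to 9.51 at 9 hr. All 3 hr libraries lay below the untreated ones (-0.79 ± 0.13, limma adjusted p = 2.23e-06). Eif4ebp1 fell later, from 10.34, 10.41, 10.45 and 10.71 in untreated cells to 9.85, 9.97, 10.13 and 10.15 at 6 hr (-0.45 ± 0.10, adjusted p = 1.79e-04), and was 10.47 to 10.81 at 9 hr. Between 6 and 9 hr both genes rose in all 3 scalings. Eif4ebp3 was 8.64 to 8.78 in untreated WT and 8.71 to 8.76 at 6 hr, so these groups overlapped. Eif4enif1, which encodes an eIF4E-binding shuttle protein, was lower at 1 hr in all 3 scalings (-0.19 in the deposited values). It was 10.09 to 10.36 in untreated WT and 10.33 to 10.48 at 6 hr, a difference of 0.20 that was 0.0098 after quantile normalization and -0.38 with equal totals.

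**Figure D3:**
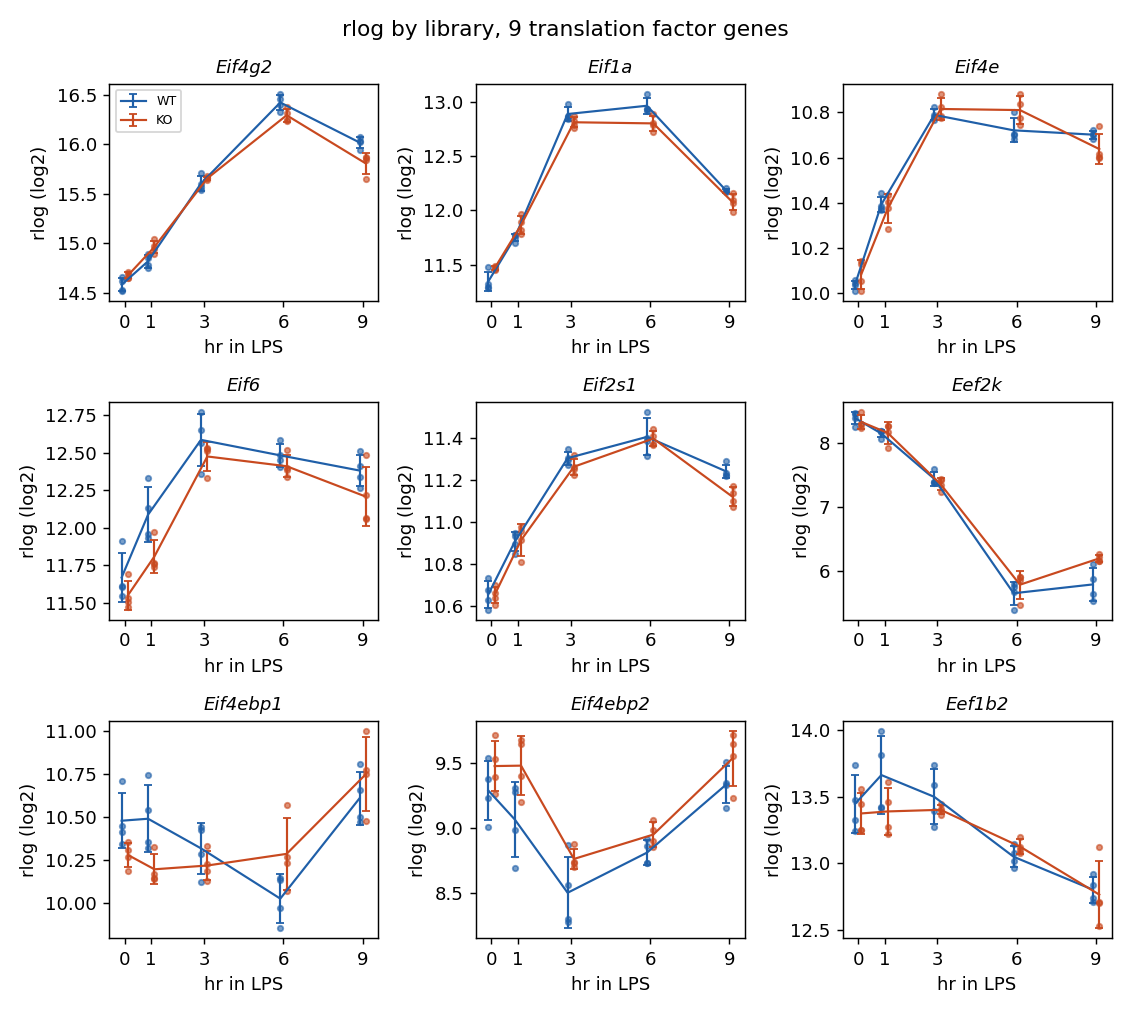
rlog (log2 units) of 9 genes against hours in LPS, with a point per library, and lines and bars for the mean and SD of 4 WT (blue) and 4 Cpeb4-/- (orange) libraries. Eif4g2 and Eif1a peak at 6 and 3 to 6 hr, Eef2k is lowest at 6 to 9 hr and Eif4ebp2 is lowest at 3 hr.

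Most elongation factor mRNAs were lower by 9 hr. Of 9 genes in this group, which includes Eef1e1, 5 were lower and 2 higher after 6 hr. Over all tested genes, 40.2% were lower and 39.7% higher at that time. By 9 hr 6 of the 9 were lower with 2 higher, beside 36.6% and 37.0% of tested genes. Eef1b2, the exchange factor for eEF1A, was 13.24, 13.32, 13.48 and 13.74 in untreated WT and 12.71, 12.74, 12.84 and 12.92 at 9 hr (-0.64 ± 0.12, limma adjusted p = 9.68e-06). Eef2 went from 15.15, 15.18, 15.21 and 15.28 to 14.83, 14.86, 14.89 and 14.91. At 9 hr Eef1a1, Eef1b2, Eef1d, Eef2 and Eef1a2 were lower in all 3 scalings. Eef1a1 at 6 hr showed a difference of -0.09 ± 0.07 (adjusted p = 0.19), which was -0.91 and -0.67 in the other scalings. Eef1a2, the form best known from brain and muscle, was 5.48, 5.83, 6.01 and 6.06 in untreated WT and 4.64, 4.84, 5.01 and 5.18 at 9 hr (-0.92 ± 0.16, adjusted p = 4.46e-06). Eif5a, needed at difficult peptide bonds, was 0.31 ± 0.06 higher at 6 hr but -0.58 and -0.27 in the other scalings, and Eif5a2 was lower (-0.46 ± 0.12), a call that was lost after quantile normalization (-0.14, adjusted p = 0.25) and kept with equal totals (-1.04). Eef1e1, a scaffold of the tRNA synthetase complex despite its symbol, rose from 9.33, 9.39, 9.40 and 9.61 to 10.07, 10.31, 10.45 and 10.48 at 3 hr (0.89 ± 0.08, adjusted p = 3.82e-12).

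Eef2k, the kinase gene of eEF2 at chr7:120842642-120907219, had the largest fall of the 61 genes. It was 8.25, 8.39, 8.44 and 8.46 in untreated WT libraries, 8.05 to 8.18 at 1 hr, 7.37 to 7.60 at 3 hr, 5.39, 5.66, 5.75 and 5.80 at 6 hr and 5.54 to 6.11 at 9 hr. The difference at 6 hr was -2.74 ± 0.10 (limma adjusted p = 2.44e-23), and it was -2.72 in batch 1 and -2.75 in batch 2. It lay between -3.32 and -2.48 under all 8 alternatives.

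Genes with and without the pyrimidine run differed in their medians at 9 hr. At that time 37.0% of tested genes were higher and 36.6% lower. Of the 19 genes with the run, 6 were higher and 9 lower, and of the 28 without it 18 were higher and 6 lower. The medians were -0.10 and 0.20, then -0.29 and -0.07 after quantile normalization and -0.47 and -0.17 with equal totals. At 6 hr the medians with and without the run were 0.13 and 0.32. They were -0.20 and -0.16 after quantile normalization and -0.45 and -0.26 with equal totals. The order was thus the same in all 3 scalings at 6 and 9 hr, but not at 1 and 3 hr. At 1 hr the medians were 0.08 and 0.13 in the deposited values and -0.08 and -0.11 after quantile normalization. At 3 hr they were 0.07 and 0.20, then -0.09 and -0.15. The motif window was chosen after values were seen, and no test was made. Genes with the E-box were 5 higher and 5 lower of 12 at 9 hr, with a median of 0.09 against 0.19 for the other 35. These medians were -0.38 and -0.07 after quantile normalization and -0.28 and -0.18 with equal totals.

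Cpeb4-/- BMDMs were compared with their own untreated cells in the same way. In them 18 members were higher and 5 lower after 1 hr, beside 41.9% of tested genes called (22.6% higher, 19.4% lower). The 3 hr count was 31 higher and 8 lower, beside 69.9% (33.7% and 36.2%), and the 6 hr count 32 and 12, beside 77.9% (38.4% and 39.5%). After 9 hr 21 were higher and 17 lower, beside 71.3% (35.7% and 35.6%). These splits also turned with the scaling. Quantile normalization gave 8 higher and 19 lower after 1 hr, 14 and 28 after 3 hr, then 14 and 29 (6 hr) and 13 and 30 (9 hr). Equal totals gave 3 and 30, 10 and 39, 6 and 42, and 7 and 41 in the same order. Eef2k was 8.23, 8.29, 8.30 and 8.48 in untreated Cpeb4-/- libraries and 5.46, 5.86, 5.91 and 5.91 at 6 hr, and Eif4g2 went from 14.65 to 14.71 up to 16.23 to 16.38.

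Few of these mRNAs differed between the genotypes. In untreated cells 1 member, Eef1a2, was higher in Cpeb4-/- than in WT (1.05% of tested genes called). After 1 hr of LPS 0 members were called by limma, although 18 had an unadjusted p under 0.05 and 1.84% of tested genes were called. A limma fit of all 40 libraries together called 21 members at that time, 8 higher and 13 lower, beside 31.9% of tested genes in that fit. The 3 hr libraries gave 2 higher members (3.60%), those of 6 hr 2 higher and 1 lower (16.3%), and those of 9 hr 2 higher (7.72%).

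Eef1a2 was higher in Cpeb4-/- at each time. At 0 hr it was 6.40, 6.54, 6.57 and 6.63 in Cpeb4-/- and 5.48, 5.83, 6.01 and 6.06 in WT, and at 3 hr 6.10, 6.36, 6.47 and 6.55 against 5.44, 5.64, 5.76 and 5.80. The genotypes did not overlap at 0, 1, 3 and 9 hr and overlapped at 6 hr. The difference was 0.69 ± 0.12 in untreated cells (limma adjusted p = 0.030) and 0.60 ± 0.18 after 1 hr (adjusted p = 0.083). It was 0.71 ± 0.12 after 3 hr (adjusted p = 0.017), 0.56 ± 0.16 after 6 hr (adjusted p = 0.034) and 0.57 ± 0.14 after 9 hr (adjusted p = 0.039). The exact two-sided permutation p was 0.029 at 0, 1, 3 and 9 hr, the smallest that 4 against 4 allows, and 0.057 at 6 hr. At 0 hr the difference was 0.94 in batch 1 and 0.44 in batch 2. These calls did not hold under every alternative. Without the expression limit, the adjusted p ranged from 0.058 to 0.13 at the 4 called times. After quantile normalization the 9 hr call was lost (adjusted p = 0.059). Leaving out 1 mouse ended the 0 hr call for Cpeb4-/- mice 2, 3, 55 and 62 and WT mouse 88, and the 3 hr call for Cpeb4-/- mice 3 and 62 and WT mouse 25. It ended the 6 hr and 9 hr calls for Cpeb4-/- mice 3, 55 and 62 and WT mice 25, 87 and 88. In these fits the adjusted p reached at most 0.11 in untreated cells, 0.066 after 3 hr, 0.085 after 6 hr and 0.11 after 9 hr, and the differences kept their sign. Eef1a2 lies at chr2:181141758-181157015. The tested genes next to it were taken in equal number on each side, 10 in all. Of these, 0 were called at 0, 1, 3 or 9 hr, where their differences lay between -0.30 and 0.26. Ythdf1 (-0.28) was called at 6 hr.

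Eif4e3 was higher in Cpeb4-/- at 9 hr. It was 9.69, 9.77, 9.80 and 10.03 in Cpeb4-/- and 9.33, 9.43, 9.44 and 9.51 in WT, with no overlap and a difference of 0.40 ± 0.08 (limma adjusted p = 0.014; 0.37 in batch 1 and 0.42 in batch 2). The difference of its LPS change between genotypes was 0.18 ± 0.11 at 9 hr (adjusted p = 0.55), so a smaller fall was not shown by that test. Untreated Eif4e3 was 10.35 to 10.56 in Cpeb4-/- and 10.10 to 10.40 in WT. At 6 hr it was 10.38 to 10.47 against 10.15 to 10.37, without overlap. The 6 hr difference was not called in the deposited values. It was called after quantile normalization (0.14, limma adjusted p = 0.047) and with equal totals (0.23, adjusted p = 0.0053). Eif2b3, the gamma subunit gene of eIF2B, was 8.58, 8.63, 8.69 and 8.71 in Cpeb4-/- at 6 hr against 8.22, 8.30, 8.40 and 8.50 in WT (0.30 ± 0.07, adjusted p = 0.011). The Eif4e3 call at 9 hr and the Eif2b3 call at 6 hr held under all 13 alternatives. Eif4a2 at 3 hr was 11.67, 11.68, 11.81 and 11.87 in Cpeb4-/- and 11.42, 11.50, 11.55 and 11.56 in WT (0.25 ± 0.06, adjusted p = 0.046). This call was lost in 9 of 13 alternatives, with adjusted p from 0.070 to 0.14, among them batch as a covariate, no expression limit and the removal of any 1 mouse other than WT mouse 88.

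The Cpeb4-/- 9 hr library of mouse 2 weighed on the 9 hr count. Without that mouse 23 members were called, 5 higher and 18 lower, among them Eif1 (-0.36), Eif2b4 (-0.34), Eif1b (-0.32) and Eif4ebp3 (-0.31), and Eef2k was higher (0.40). In that fit 34.8% of tested genes were called. With batch as a covariate 9 were called, 2 higher and 7 lower, beside 13.6% of tested genes. At 3 hr 9 were called without WT mouse 88 (19.7% of tested genes), and 5 at 1 hr without WT mouse 69 (18.0%).

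**Figure D4:**
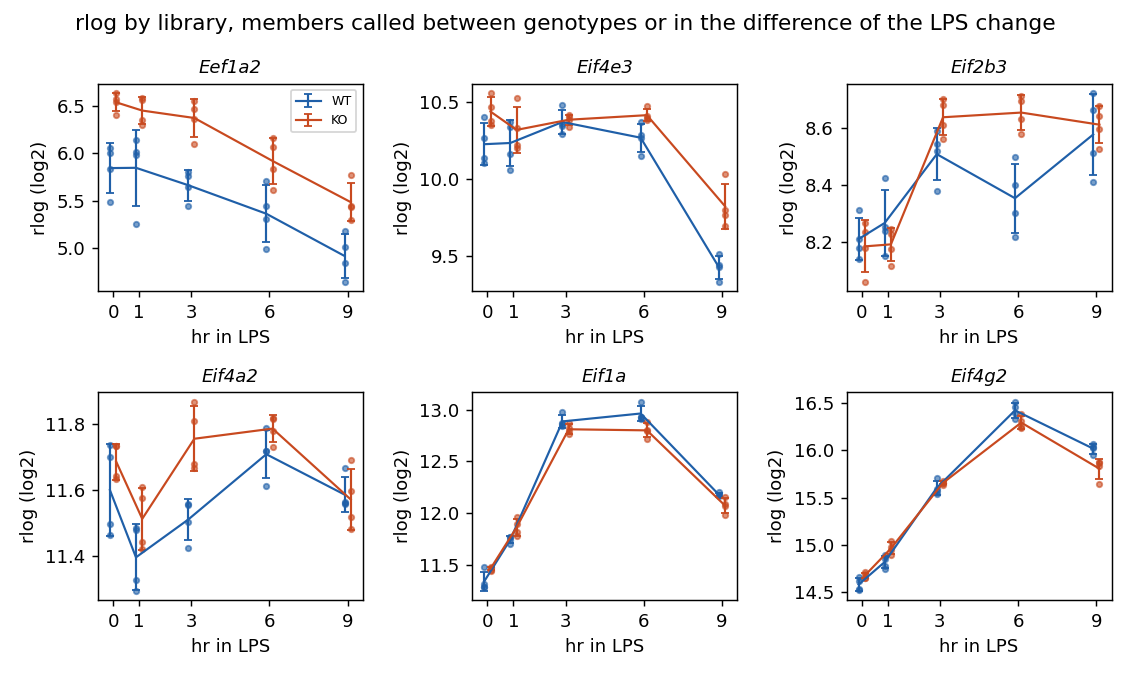
rlog (log2 units) of 6 genes against hours in LPS, with a point per library, and lines and bars for the mean and SD of 4 WT (blue) and 4 Cpeb4-/- (orange) libraries. Eef1a2 is higher in Cpeb4-/- at each time (not called at 1 hr), Eif4e3 at 9 hr, Eif2b3 at 6 hr and Eif4a2 at 3 hr. Eif1a is lower at 6 hr. Eif4e3 at 6 hr (higher) and Eif4g2 at 9 hr (lower) do not overlap between genotypes but were not called. Untreated Eif4e3 also has a higher mean in Cpeb4-/-.

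The LPS change itself differed between genotypes for 2 genes. For Eif1a at 6 hr it was smaller in Cpeb4-/- by 0.28 ± 0.06 on the log2 scale (limma adjusted p = 0.011; 2.94% of tested genes called), and the adjusted p was 0.097 without Cpeb4-/- mouse 62. Untreated Eif1a was 11.45, 11.46, 11.48 and 11.49 in Cpeb4-/- against 11.29, 11.29, 11.32 and 11.48 in WT. The higher untreated mean in Cpeb4-/- thus added to the difference of the change. Its values at 6 hr were 12.72, 12.79, 12.80 and 12.89 in Cpeb4-/- against 12.91, 12.93, 12.93 and 13.07 in WT, which did not overlap, a difference of -0.16 ± 0.05 (adjusted p = 0.039). That genotype call at 6 hr was lost in 11 of 13 alternatives, among them both other scalings (-0.08 in each) and the removal of any 1 mouse other than Cpeb4-/- mouse 55. For Eif4g2 at 9 hr the LPS change was smaller by 0.31 ± 0.07 (adjusted p = 0.014; 1.76% called). Its 9 hr values were 15.65, 15.84, 15.86 and 15.87 in Cpeb4-/- and 15.95, 16.02, 16.03 and 16.07 in WT. These did not overlap, but the genotype difference at 9 hr was not called in the fit of that time. It was called with batch as a covariate and in 1 fit of all libraries (-0.21 in each, limma adjusted p = 0.046 and 0.0025). Without Cpeb4-/- mouse 2 it was also called (-0.16, adjusted p = 0.040). Untreated cells had 14.65 to 14.71 in Cpeb4-/- and 14.52 to 14.66 in WT. The difference of the change was lost after quantile normalization (-0.19, adjusted p = 0.42), without Cpeb4-/- mouse 2 (adjusted p = 0.066) and without WT mouse 87 (adjusted p = 0.076). At 1 and 3 hr 0 members were called, with 1 at an unadjusted limma p under 0.05 at each time (0.00763% and 0.206% of tested genes called). With the mouse as replicate block, 4 members were called at 6 hr, beside 7.88% of tested genes in that fit, and 4 at 9 hr, beside 4.99%. At 6 hr Eif4ebp1 (0.46), Eif2b3 (0.33) and Eif4g2 (-0.22) were added to Eif1a. At 9 hr Eef2k (0.47), Eif1a (-0.23) and Eif4a1 (-0.21) were added to Eif4g2.

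Other genes of translation and its control were counted from 4 lists in WT at 6 hr, in the deposited scaling, where 79.9% of tested genes were called. Of 8 termination and recycling genes 5 were higher and 2 lower, with Denr at 1.22, the release factor genes Etf1 at 1.00 and Gspt1 at 0.97, and Gspt2 at -1.63. Of 15 genes of eIF4E and mTORC1 control 6 were higher and 4 lower, with Larp1 at 1.84, Mtor at 0.97, the eIF4A inhibitor gene Pdcd4 at -2.78 and the eIF4E kinase gene Mknk2 at -2.11. Of 6 genes of the eIF2 kinases and phosphatase 3 were higher and 2 lower. The kinase gene Eif2ak2 (PKR) was at 2.17, the phosphatase subunit genes Ppp1r15b and Ppp1r15a at 2.04 and 1.32, and the kinase gene Eif2ak4 (GCN2) at -1.25. Of 20 cytosolic tRNA synthetase genes 9 were higher and 5 lower, with Wars at 1.73 and Rars at 1.44. Between genotypes, 0 genes of the 4 lists were called at 0 and 1 hr. At 3 hr 1 gene of eIF4E and mTORC1 control was higher (3.60% of tested genes called). At 6 hr (16.3%) that list had 2 higher and 1 lower, and the tRNA synthetases 4 higher and 2 lower. The eIF2 kinases and phosphatase had 1 higher, and termination and recycling 1 lower. At 9 hr (7.72%) 1 gene of the eIF2 kinases and phosphatase was higher. Termination and recycling and the tRNA synthetases each had 1 lower. Ddit4, an inhibitor of mTORC1, was higher in Cpeb4-/- by 0.65 at 3 hr and 0.82 at 6 hr, and Eif2ak4 by 0.36 at 6 hr and 0.45 at 9 hr.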

How the data were processed

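Poly(A) RNA libraries of BMDMs were aligned by the authors to mm10 with STAR 2.3.0e and counted with featureCounts, and the deposited values are rlog values of DESeq2, on a log2 scale. The table gives no counts, so the depth of each library is unknown here and no count test could be run. Genes whose rlog averaged 2.32 or more over 40 libraries (5 on the count scale) were tested in R 4.3.3 by limma 3.58.1, using lmFit and eBayes with a trend, and with Benjamini-Hochberg adjustment over 13103 genes. Times and the difference of the LPS change were fitted on 10 group means of 40 libraries, and genotypes on the 8 libraries of each time. Each mouse gave all 5 times, and libraries of a mouse deviated together (median r 0.29 over genes, 68 of 80 pairs over 0.1, against -0.09 for different mice). The mouse was therefore an alternative replicate block. Other alternatives were no expression limit, quantile normalization, leaving out mice, batch, 1 fit of all libraries and, added after the data were seen, equal totals. Fits were tested on simulated data. Values per library are given for the 5 largest rises and falls in WT, the members with the smallest genotype p, those called in the difference of the LPS change, and a fixed list of core factors and paralogs; from the pathway lists, up to 4 called genes with the largest change are named. Other members named by their difference were picked freely. The members and lists were chosen with earlier results of these data known. Figures were drawn with Python 3.11.15 and matplotlib 3.10.9.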

Additional observations from a re-analysis of the deposited data

Results flagged for a closer look

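Among 28 named genes, 1 library stood far from the other 3 of its group in 19 of 280 groups of 4 (6.79%), where chance alone flags about 1 in 20 groups. In Cpeb4-/- mouse 2, Eif1 at 9 hr was 11.39, with the other 3 mice at 11.09 to 11.11. The same mouse had Eif4e at 10.74 at 9 hr, against 10.60 to 10.61. Eif4ebp1 at 1 hr was 10.33 in Cpeb4-/- mouse 2 and 10.14 to 10.17 in the others. There, Eif4g2 was 15.65 at 9 hr, against 15.84 to 15.87. Eif5a2 at 1 hr was 8.09 in Cpeb4-/- mouse 2 and 8.26 to 8.29 in the others. The same mouse had Eif5a2 at 7.52 at 9 hr, against 8.01 to 8.09. Eif6 at 1 hr was 11.97 in Cpeb4-/- mouse 2 and 11.74 to 11.77 in the others. There, Eif6 was 12.33 at 3 hr, against 12.51 to 12.53. In WT mouse 88, Eef1e1 at 9 hr was 9.57, with the other 3 mice at 9.81 to 9.83. The same mouse had Eef2k at 7.60 at 3 hr, against 7.37 to 7.40. Eif1a at 0 hr was 11.48 in WT mouse 88 and 11.29 to 11.32 in the others. There, Eif1a was 13.07 at 6 hr, against 12.91 to 12.93. Eif4g3 at 9 hr was 11.93 in WT mouse 88 and 11.79 to 11.81 in the others. In Cpeb4-/- mouse 62, Eef1a1 at 3 hr was 15.43, with the other 3 mice at 15.38 to 15.39. The same mouse had Eef1e1 at 9.53 at 1 hr, against 9.65 in the others. In WT mouse 87, Eef2k at 1 hr was 8.05, with the other 3 mice at 8.17 to 8.18. There, Eif2s3y was 10.86 at 0 hr, against 11.11 to 11.16. In Cpeb4-/- mouse 3, Eef2k at 6 hr was 5.46, with the other 3 mice at 5.86 to 5.91. In WT mouse 25, Eif4a2 at 9 hr was 11.66, with the other 3 mice at 11.56.

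The LPS change differed between genotypes by a test of the difference itself for Eif1a at 6 hr (-0.28, limma adjusted p = 0.011) and for Eif4g2 at 9 hr (-0.31, adjusted p = 0.014), Cpeb4-/- minus WT. Both rises were smaller in Cpeb4-/-, where the mean of untreated cells was also higher for both genes. In batch 1 and batch 2 the differences were -0.31 and -0.26 for Eif1a and -0.22 and -0.39 for Eif4g2. The Eif4g2 value was -0.26 (adjusted p = 0.066) without Cpeb4-/- mouse 2, whose 9 hr library was the farthest of its 4, and its adjusted p was 0.076 without WT mouse 87. For Eif1a the adjusted p was 0.097 without Cpeb4-/- mouse 62.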

How the results depend on the processing

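Leaving out single mice moved the counts of members called as follows. KO against WT ranged from 0 to 1 at 0 hr, 0 to 5 at 1 hr, 0 to 9 at 3 hr, 1 to 4 at 6 hr and 1 to 23 at 9 hr, and LPS against untreated in Cpeb4-/- at 1 hr from 15 to 21. The shares of tested genes called moved too. For KO against WT they ran from 0.282% to 1.15% at 0 hr, 0.183% to 18.0% at 1 hr and 0.572% to 19.7% at 3 hr. At 6 hr they ran from 10.3% to 17.7% and at 9 hr from 2.85% to 34.8%. For LPS in Cpeb4-/- at 1 hr they ran from 32.9% to 39.3%. The difference of the LPS change ranged from 0 to 2 at 6 and 9 hr (0.641% to 2.99% and 0.687% to 1.72% of tested genes called). The replicate block gave 4 calls in that difference at 6 hr (7.88% of tested genes) and 4 at 9 hr (4.99%), against 1 and 1. It changed the count of no other comparison by more than 1.5 times. Without the expression limit the genotype counts were 0 at 0 hr (0.241% of tested genes called), 0 at 3 hr (0.804%) and 1 at 9 hr (2.80%). With quantile normalization they were 5 at 6 hr (15.3%) and 1 at 9 hr (7.05%). With batch as a covariate they were 1 at 3 hr (1.44%) and 9 at 9 hr (13.6%), and with all 40 libraries in 1 fit 21 at 1 hr (31.9%) and 12 at 9 hr (17.4%). Equal totals gave 16 genotype calls at 6 hr (21.2%), 3 in the difference of the LPS change at 6 hr (2.88%) and 41 for WT 3 hr against 1 hr (71.5%). The cause of these shifts was not tested. Signs at WT 6 hr turned after quantile normalization for Eif4g1 (-0.16), Eif4a1 (-0.0816), Eif4a2 (-0.39), Eif5a (-0.58) and Eif2s3y (-0.10), and with equal totals for Eif4ebp3 (-0.57), Eif4a1 (-0.17), Eif4a2 (-0.47), Eif5a (-0.27), Eif1ax (-0.0801), Eif2s3x (-0.17), Eif2s3y (-0.32), Eif4e2 (-0.0639) and Eif4e3 (-0.54). With 4 mice a group, the smallest exact p is 0.029, and the unknown depth sets no limit that could be given.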
